A study of Mus musculus with 6 samples.

Results

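Killer lectin receptors are C-type lectin-like proteins through which natural killer (NK) cells and some T cells read the state of other cells. Together with the granzymes, perforin and their regulators they make up 42 of the 22180 genes that could be tested on the arrays of this study. The members are 23 killer lectin receptor genes (Klra to Klrk), 9 granzyme genes and 10 other genes of cytotoxic cells: Xcl1, Prf1, Nkg7, Ncr1, Ccl5, Tbx21, Eomes, Fasl, Ctsw and Tyrobp. They were chosen by gene symbol among probe sets annotated with exactly 1 symbol, with no filter on intensity, and each of the 42 was read by 1 probe set. A further 6 probe sets that list a receptor, granzyme or effector symbol together with other symbols were left out.

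The study sorted LT-HSC, the long-term stem cells of mouse marrow that can rebuild all blood lineages, in 2 groups. The NPMc+ group is 3 pools of animals expressing NPMc+, the cytoplasmic mutant form of nucleophosmin, and the control group is 3 pools of control animals. All pools were of strain C57/BL6, and the cells of both groups came from bone marrow by flow sorting, 4 months after a marrow transplant. The labels do not say which promoter or cell type drove the mutant, nor the age of the animals.

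In each probe set of the deposited table, same-numbered arrays of the groups share 1 common mean (within 0.001 log2 units in 100% of probe sets). A replicate effect is therefore already out of the values, and the spread of a gene lies in its 3 differences between an NPMc+ array and the control array of the same number, here called pairs 1 to 3. It also follows that the array values of the groups fail to overlap exactly when all 3 pairs have 1 sign. Of 14 LT-HSC markers 12 were measured. Their mean level was 6.51 to 6.63 log2 units on NPMc+ arrays and 5.93 to 6.05 on control arrays. Levels within the list ranged widely, with Kit at 9.37 and 8.95 and the lowest, Fgd5, at 3.85 and 4.05. Genes of mature cells had signal too: the mean level of 15 neutrophil and monocyte markers was 8.62 to 9.24 on NPMc+ arrays and 9.39 to 10.01 on control arrays. Pools also differed in sex-linked RNA: Xist, which coats the inactive X chromosome, had differences of -5.44, -5.39 and 0.48 log2 units in pairs 1, 2 and 3. The Y-linked gene Uty differed by 4.69, 0.93 and 0.35, Kdm5d by 3.48, 1.29 and -0.67 and Eif2s3y by 5.49, 0.36 and -0.79, so that pair 2 differed far more in Xist than in these genes. The part of this in the results was not tested.

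In NK cells, inhibitory killer lectin receptors bind class I molecules or related ligands on healthy cells and hold the cell in check, while activating ones such as NKG2D bind stress-induced ligands. Activating receptors signal through adaptor proteins such as DAP12, encoded by Tyrobp. An activated cell releases perforin, which opens membranes, and granzymes, proteases that enter and kill the target cell. Most of the receptor genes lie together in the NK gene complex on mouse chromosome 6, and a stem cell sort should leave out the mature cells that use them.

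More cytotoxic genes had lower than higher signal in NPMc+ samples. Of the 42 members 35 had a negative difference, NPMc+ minus control, and 7 a positive one, with a median of -0.28 log2 units against -0.01 over all genes tested. In limma's moderated test on the differences within pairs, an unadjusted p under 0.05 was reached by 12 members that were lower and 2 that were higher. The 12 are 28.6% of the members, where 3.07% of all genes tested were lower by that rule, and the 2 are 4.76%, where 5.12% of all genes were higher. After Benjamini-Hochberg adjustment over all genes, 0 members and 0% of all genes passed in limma, so no single member is called, and the adjusted p-values of the 14 were 0.275 to 0.602. Lower on all 3 NPMc+ arrays than on any control array were 19 members (45.2%, against 15.4% of all genes), and higher on all 3 were 4 (9.52%, against 14.3%). Pairs 2 and 3 carry much of the count: 7 members were lower at an unadjusted p under 0.05 without pair 2 and 6 without pair 3, and 12 without pair 1. Of all genes, 2.9%, 2.7% and 2.9% were lower in these fits, in the same order. In RNA from a sorted population, fewer cells of a type and less RNA per cell cannot be told apart.

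**Figure D1:**
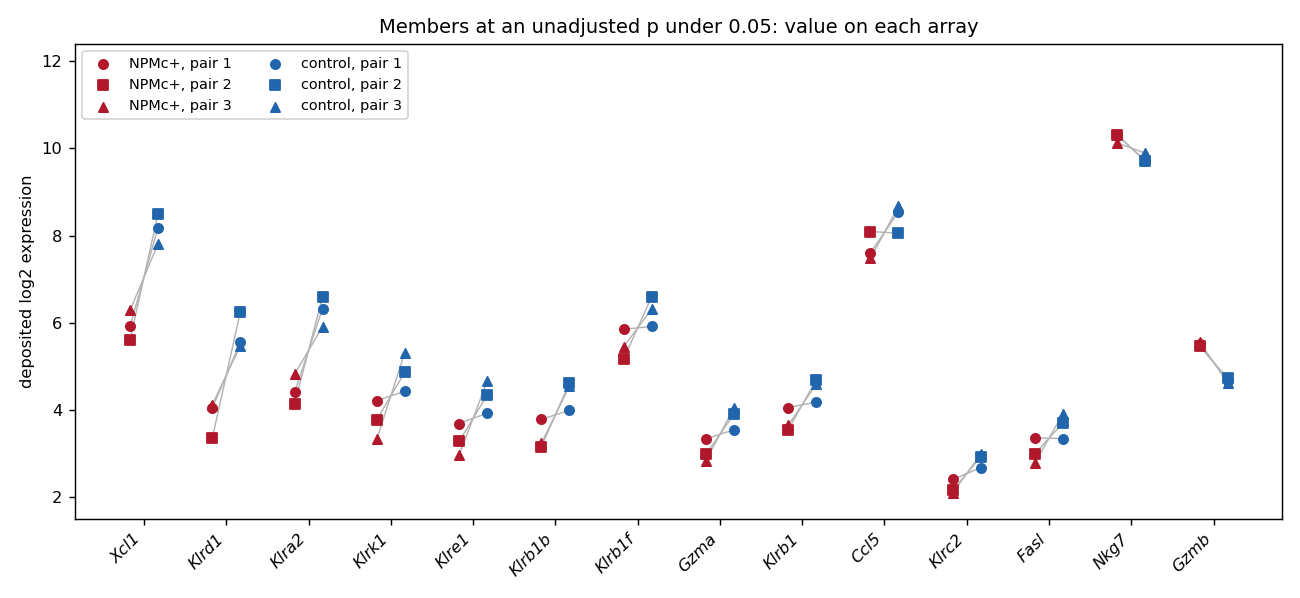
Deposited log2 expression on each array for the 14 members at an unadjusted p under 0.05, with NPMc+ arrays (red) left of control arrays (blue), marker shapes for pairs 1 to 3 and grey lines joining a pair. Xcl1, Klrd1 and Klra2 are lower by more than 1 log2 unit in every pair, whereas Gzmb and Nkg7 are higher in every pair.

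Many members had low signal. For 16 of the 42 the mean over the 6 arrays was below 3.01 log2 units, the 25th percentile of all genes tested. Of the 14 members at an unadjusted p under 0.05 only Klrc2 lay there. Among the 26 members above that level, the same threshold was met by 11 lower and 2 higher ones. Of all genes at any level, 3.07% were lower and 5.12% higher by this threshold. Of the 16 members below 3.01, 10 were killer lectin receptors other than Klrc2 and 5 were granzymes. Genes of the Ly49 and granzyme families resemble each other closely, so that a probe set may also read a relative.

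The CD94 and NKG2 receptors lay lower in NPMc+ samples. Klrd1 encodes CD94, the shared partner chain of the NKG2 receptors encoded by the Klrc genes. Its level was 4.03, 3.34 and 4.12 log2 units on the NPMc+ arrays of pairs 1, 2 and 3, against 5.55, 6.24 and 5.46 on the control arrays. Every NPMc+ array lay below every control array, and the difference was -1.92 ± 0.32 log2 units (SE; 3.77-fold lower, limma adjusted p 0.309). Klrk1, the activating receptor NKG2D, had 4.21, 3.77 and 3.32 in NPMc+ and 4.42, 4.86 and 5.31 in control samples. The groups did not overlap, but pair 1 differed by only -0.22 where pair 3 differed by -1.99. The fitted difference was -1.10 ± 0.33 (SE; limma adjusted p 0.511), and without pair 3 it was -0.65 at an unadjusted p of 0.0568.

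Of the chains that pair with CD94, Klrc2 encodes the activating NKG2C. It was low on all arrays, at 2.40, 2.15 and 2.09 log2 units in NPMc+ and 2.67, 2.92 and 2.97 in control samples, a difference of -0.64 ± 0.19 (SE; limma adjusted p 0.510). Without pair 2 its unadjusted p was 0.0541 and without pair 3 it was 0.0684. Klrc1, the inhibitory NKG2A, differed by -0.48 with a 95% interval of -1.03 to 0.08, and most of that lay in pair 1, at -1.06. Klrc3 differed by -0.30 (interval -0.77 to 0.17). All 5 CD94 and NKG2 genes were negative in 3 of 3 pairs, against 15.4% of all genes. At an unadjusted p under 0.05, 3 were lower, against 3.07% of all genes.

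The NKR-P1 receptors, encoded by the Klrb1 genes, bind lectin-like ligands of the Clec2 family. Of these 5 genes, 3 lower and 0 higher ones had an unadjusted p under 0.05, against 3.07% and 5.12% of all genes. Klrb1b, an inhibitory receptor, had 3.78, 3.15 and 3.22 log2 units in NPMc+ and 3.98, 4.61 and 4.54 in control samples, a difference of -0.99 ± 0.27 (SE; 1.99-fold lower, limma adjusted p 0.475). Klrb1f had 5.85, 5.16 and 5.45 in NPMc+ samples, against 5.91, 6.59 and 6.31 in control samples. The gene listed as Klrb1 had 4.05, 3.54 and 3.64 in NPMc+ samples and 4.18, 4.68 and 4.58 in control samples. For all 3 the groups did not overlap, and the difference was near 0 in pair 1 (-0.20, -0.07 and -0.13 for Klrb1b, Klrb1f and Klrb1) and between -1.46 and -0.86 log2 units in the other pairs.

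Klrb1f differed by -0.79 ± 0.27 and Klrb1 by -0.74 ± 0.23 log2 units (SE; limma adjusted p 0.547 and 0.523). Without pair 2 their unadjusted p was 0.127 and 0.0906, and without pair 3 it was 0.0754 and 0.0758. Klrb1c, the activating receptor NK1.1 by which NK cells of this strain are recognised, went the other way. It had 4.57, 4.55 and 4.56 log2 units in NPMc+ and 4.26, 4.28 and 4.26 in control samples, a small and even difference of 0.30 ± 0.16 (SE; limma adjusted p 0.689). The pseudogene Klrb1-ps1 differed by -0.13 (95% interval -0.87 to 0.61).

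The Ly49 receptors in mouse bind class I molecules. Of their 7 genes 1, Klra2, was lower at an unadjusted p under 0.05, as were 3.07% of all genes. Klra2 encodes Ly49B, an inhibitory receptor known from myeloid cells. Its level was 4.40, 4.13 and 4.82 log2 units in NPMc+ samples, against 6.32, 6.59 and 5.90 in control samples. The groups were separated by more than 1 log2 unit, and the difference was -1.82 ± 0.27 (SE; 3.54-fold lower, limma adjusted p 0.286). The other Ly49 genes, Klra5, Klra6, Klra9, Klra11, Klra14-ps and Klra17, differed by -0.29 to 0.09 log2 units and did not reach that threshold. All but Klra17 of these 6 had means below 3.01. Klra17, which encodes Ly49Q of plasmacytoid dendritic cells, had 3.68, 3.79 and 4.32 in NPMc+ and 4.47, 4.35 and 3.83 in control samples, so that pair 3 went against the others.

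Of the remaining killer lectin receptors, Klre1 was lower. Its product forms dimers with those of Klri1 and Klri2. Klre1 had 3.68, 3.27 and 2.95 log2 units in NPMc+ and 3.92, 4.33 and 4.65 in control samples, with no overlap and a difference of -0.999 ± 0.286 (SE; limma adjusted p 0.505). Without pair 3 the difference was -0.65 at an unadjusted p of 0.0532. Its partners Klri1 and Klri2 were near the bottom of the scale and differed by 0.09 and -0.48. Klrg1, an inhibitory receptor for cadherins found on mature NK and effector T cells, had 3.08, 2.81 and 3.29 in NPMc+ and 3.31, 3.58 and 3.10 in control samples. Those groups overlapped, and the difference was -0.27 ± 0.22 (SE). Klrg2 and Klrh1 differed by -0.11 and 0.13.

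The position of the receptors in the NK gene complex was compared with their differences. By the order of genes in RefSeq, 20 members lie in the stretch of chromosome 6 from Klrb1 to Klra2, among 22 other genes that were tested. The Ly49 gene Klra11 had no position in that order and is not among the 20. Of the 20 members, 8 lower and 0 higher ones had an unadjusted p under 0.05, against 3.07% and 5.12% of all genes. The median of the 20 was -0.39 log2 units. Of the 22 others 1 was lower and 2 were higher, with a median of 0.06. The 1 lower gene was Clec7a, the receptor dectin-1 of myeloid cells, at -1.34 ± 0.45 (SE; limma adjusted p 0.543). Klre1, Klrd1 and Klrk1 are neighbours in this order, directly after Gabarapl1, which was higher by 0.58.

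**Figure D2:**
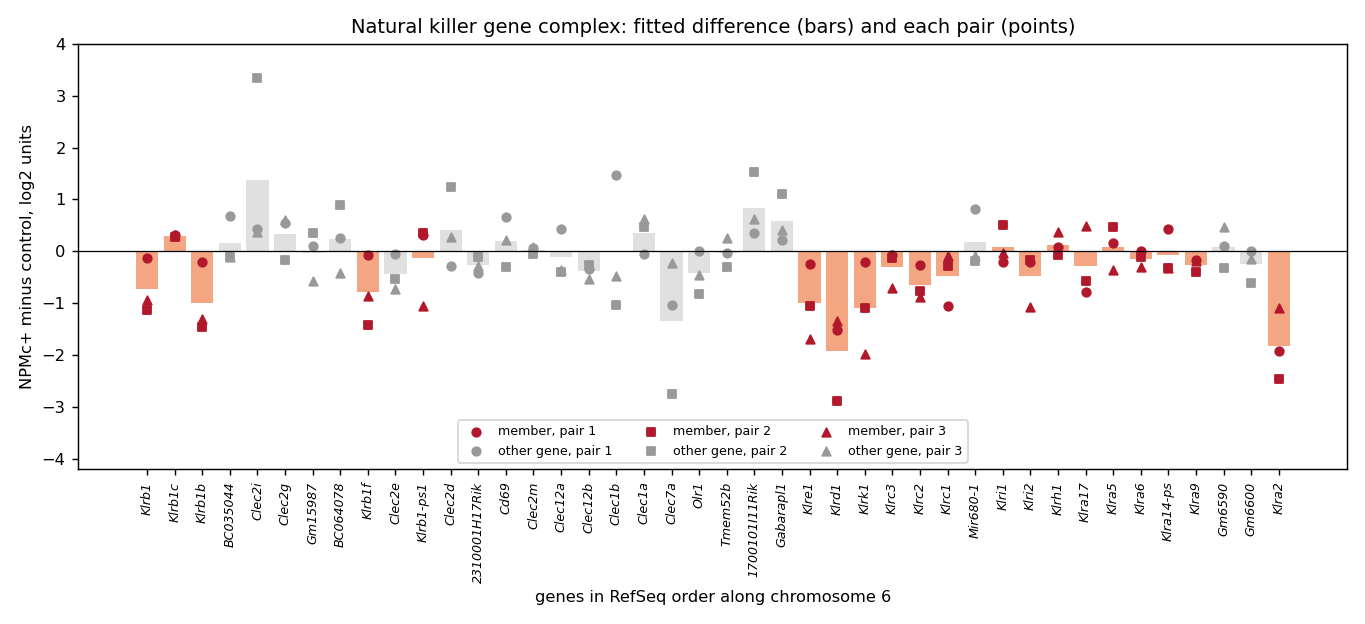
NPMc+ minus control in log2 units for genes in RefSeq order along chromosome 6 from Klrb1 to Klra2, with bars for the fitted difference and points for pairs 1 to 3. Red points and orange bars mark the 20 members, grey the 22 other genes. The members lower at an unadjusted p under 0.05 are Klrb1, Klrb1b, Klrb1f, Klre1, Klrd1, Klrk1, Klrc2 and Klra2.

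Granzymes went in both directions. Gzmb, the main death-inducing granzyme, had 5.51, 5.46 and 5.56 log2 units in NPMc+ samples, against 4.67, 4.72 and 4.62 in control samples. The groups were well apart and even within themselves, with a difference of 0.84 ± 0.16 (SE; 1.79-fold higher, limma adjusted p 0.379). Gzma, the other abundant granzyme of NK cells, had 3.33, 2.97 and 2.83 in NPMc+ and 3.54, 3.89 and 4.04 in control samples. It did not overlap either, but in the lower direction, by -0.78 ± 0.23 (SE; limma adjusted p 0.511); without pair 2 the unadjusted p was 0.0530 and without pair 3 it was 0.0720.

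Gzmk, a granzyme of memory T cells, had 3.57, 3.49 and 3.71 log2 units in NPMc+ and 3.40, 3.48 and 3.25 in control samples, a difference of 0.21 ± 0.17 (SE). Gzmm, which NK cells carry, differed by -0.03 (95% interval -0.53 to 0.47). Gzmc, Gzmd, Gzmf, Gzmg and Gzmn, which share chromosome 14 with Gzmb, all had means below 3.01 and differed by -0.46 to -0.04. In all, an unadjusted p under 0.05 was found for 1 lower and 1 higher granzyme of 9. Of all genes, 3.07% were lower and 5.12% higher by that threshold.

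Of the other effectors, the chemokine Xcl1 had the largest difference among the members. NK and CD8 T cells secrete it, and it attracts cross-presenting dendritic cells. Its level was 5.91, 5.60 and 6.28 log2 units in NPMc+ samples, against 8.17, 8.49 and 7.81 in control samples. Even in pair 3, where it was smallest, the difference was -1.53, and the fitted one was -2.23 ± 0.27 (SE; 4.68-fold lower, limma adjusted p 0.275). Ccl5, a chemokine of activated T and NK cells, had 7.60, 8.09 and 7.48 in NPMc+ and 8.54, 8.06 and 8.67 in control samples. Pair 2 differed by 0.04, so the groups overlapped, and the fitted difference was -0.70 ± 0.26 (SE; limma adjusted p 0.580). Without pair 1 the unadjusted p of Ccl5 was 0.154 and without pair 3 it was 0.171.

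Fasl, the death ligand of cytotoxic lymphocytes, had 3.35, 2.99 and 2.78 log2 units in NPMc+ and 3.34, 3.70 and 3.91 in control samples. Pair 1 differed by 0.02, and the fitted difference was -0.60 ± 0.25 (SE; limma adjusted p 0.602). Its unadjusted p was 0.128 without pair 2, 0.231 without pair 3, 0.0508 with dim genes left out and 0.0614 after quantile normalization. Nkg7, a membrane protein of cytotoxic granules, had high signal and was higher in NPMc+, with 10.31, 10.30 and 10.13 against 9.71, 9.71 and 9.89 in control samples. The groups did not overlap, and the difference was 0.48 ± 0.17 (SE; limma adjusted p 0.559). Without pair 1 its unadjusted p was 0.141 and without pair 2 it was 0.104.

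Perforin and the regulators of NK cells did not reach an unadjusted p under 0.05. Prf1, which encodes perforin, had 4.59, 4.51 and 4.27 log2 units in NPMc+ and 4.69, 4.76 and 5.01 in control samples, a difference of -0.36 with a 95% interval of -0.83 to 0.10. Tyrobp, the DAP12 adaptor shared with myeloid cells, had 10.66, 10.89 and 10.86 in NPMc+ and 11.25, 11.01 and 11.04 in control samples. Both were lower on each NPMc+ array than on any control array, by small amounts, and the difference of Tyrobp was -0.29 (interval -0.72 to 0.14).

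Ncr1, the activating receptor NKp46 that marks NK cells, had 3.03, 2.90 and 3.19 log2 units in NPMc+ and 3.26, 3.39 and 3.10 in control samples, with overlap. The T-box factors that direct NK and effector T cell fate overlapped as well. Tbx21 had 4.46, 4.48 and 4.07 in NPMc+ and 4.35, 4.33 and 4.74 in control samples, and Eomes 3.26, 3.46 and 3.99 in NPMc+ and 4.00, 3.79 and 3.27 in control samples. For both, pair 3 went against pairs 1 and 2. Ctsw, the protease cathepsin W of cytotoxic cells, varied most, at 5.55, 5.94 and 4.65 in NPMc+ and 5.60, 5.20 and 6.49 in control samples, and differed by -0.38 (interval -1.49 to 0.73).

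**Figure D3:**
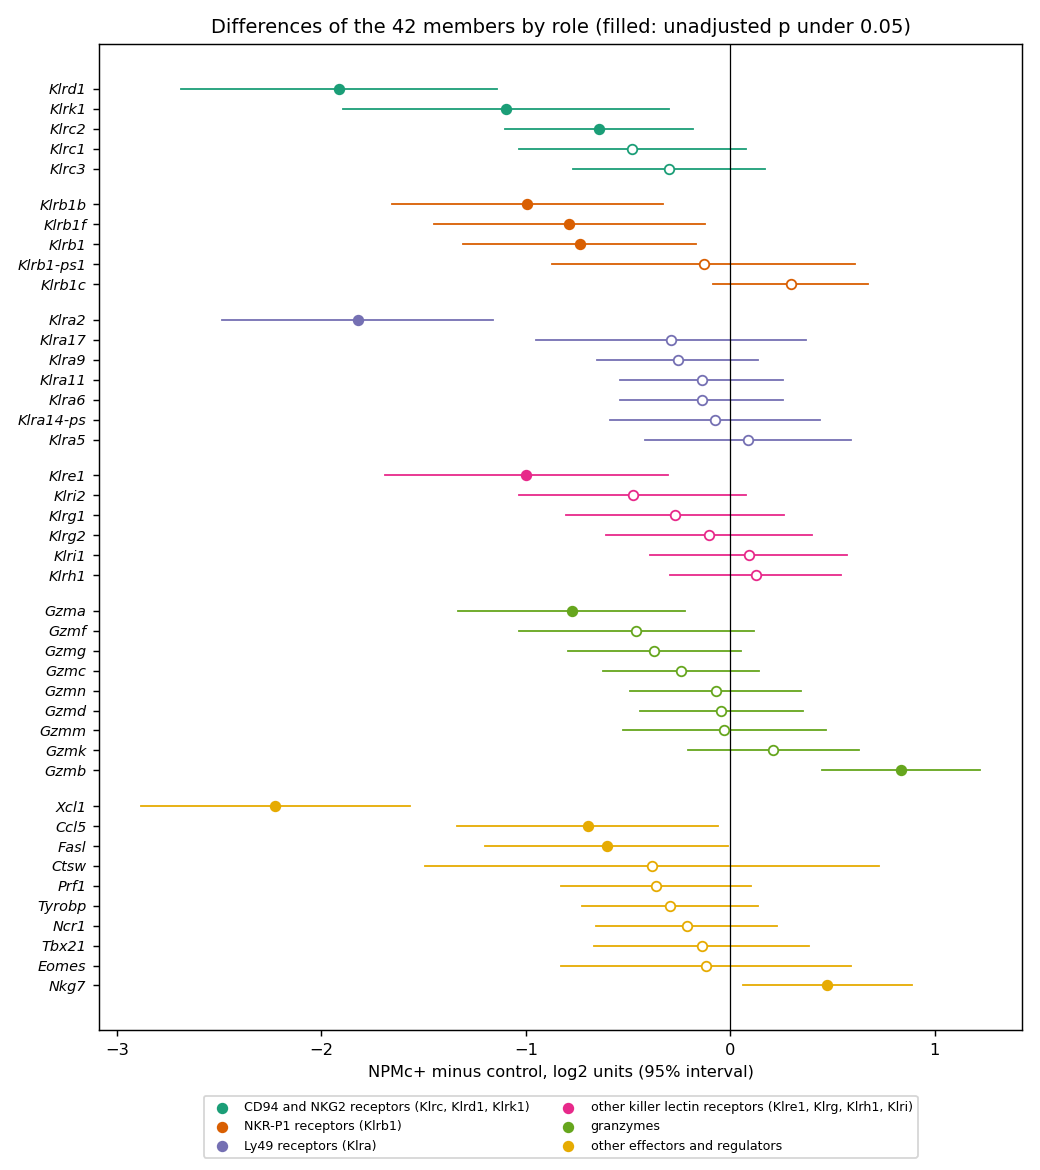
Fitted differences, NPMc+ minus control in log2 units, with 95% intervals for the 42 members grouped by role; filled points have an unadjusted p under 0.05. The filled points are 12 negative ones, in every role group, and the 2 positive ones Gzmb and Nkg7.

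The pairs did not contribute alike. Among the 12 lower members, pair 1 had the smallest difference in 8, namely Klrk1, Klrc2, Klrb1, Klrb1b, Klrb1f, Klre1, Gzma and Fasl. The median over all 42 members was -0.19, -0.30 and -0.35 log2 units in pairs 1, 2 and 3. For the 5 NKR-P1 genes the pair medians were -0.07, -1.14 and -0.94, and for the 5 CD94 and NKG2 genes -0.27, -0.78 and -0.88. Xcl1, Klra2 and Klrd1 were lower by more than 1 log2 unit in each pair, with unadjusted p under 0.05 whichever pair was left out, as had Gzmb and Klrb1b.

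Promoter sequences are shown for the members of smallest p in each direction that have an entry in RefSeq, 2 lower (Xcl1 and Klra2) and 2 higher (Gzmb and Nkg7). Each run is the 250 bases before the annotated start of the gene, read 5′ to 3′ on the gene's strand in build GRCm38.p6. Xcl1 is chr1:164935523-164935772 on the minus strand, Klra2 chr6:131247363-131247612 on the minus strand, Gzmb chr14:56262335-56262584 on the minus strand and Nkg7 chr7:43436888-43437137 on the plus strand. Capitals mark matches on either strand to TGTGGT (the core recognised by Runx factors), GGTGTG (a T-box core) or TGANTCA (AP-1); in these promoters no match overlaps another.

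Xcl1: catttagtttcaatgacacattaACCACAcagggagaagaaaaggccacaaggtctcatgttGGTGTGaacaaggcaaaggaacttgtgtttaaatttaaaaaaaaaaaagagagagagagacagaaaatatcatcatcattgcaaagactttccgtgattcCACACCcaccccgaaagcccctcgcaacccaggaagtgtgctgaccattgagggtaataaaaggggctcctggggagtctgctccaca
Klra2: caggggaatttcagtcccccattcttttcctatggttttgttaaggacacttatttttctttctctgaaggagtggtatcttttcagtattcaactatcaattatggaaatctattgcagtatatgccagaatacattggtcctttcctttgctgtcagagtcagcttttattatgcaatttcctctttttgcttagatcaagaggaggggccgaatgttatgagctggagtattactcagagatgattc
Gzmb: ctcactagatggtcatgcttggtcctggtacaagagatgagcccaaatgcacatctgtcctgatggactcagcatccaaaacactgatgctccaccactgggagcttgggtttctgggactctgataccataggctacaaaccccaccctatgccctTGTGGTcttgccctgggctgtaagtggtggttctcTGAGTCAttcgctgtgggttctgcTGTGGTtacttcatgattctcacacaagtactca
Nkg7: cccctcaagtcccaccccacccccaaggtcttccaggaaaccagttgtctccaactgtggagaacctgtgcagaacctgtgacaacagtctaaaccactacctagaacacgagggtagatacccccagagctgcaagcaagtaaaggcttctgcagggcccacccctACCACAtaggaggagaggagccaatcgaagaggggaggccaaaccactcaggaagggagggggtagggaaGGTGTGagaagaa

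In the Xcl1 promoter TGTGGT begins 227 bases before the start and GGTGTG 188 and 88 bases before it. Gzmb holds TGTGGT at 93 and 34 bases and, between them, the AP-1 sequence at 58 bases. Nkg7 holds TGTGGT at 83 and GGTGTG at 13 bases, and Klra2 holds none of these letters in its window. Entries existed for 33 members, in 38 windows. TGTGGT was in 19 of these windows (50.0%), against 14.0% of the 32851 windows of all genes, GGTGTG in 10 (26.3% against 16.3%) and TGANTCA in 1 (2.63% against 6.75%). Several members are close copies of each other, so these windows are not independent. Over all 33 members with an entry, 17 held TGTGGT. Among the 12 of them at an unadjusted p under 0.05, 7 did. These were Gzmb and Nkg7, which were higher, and Gzma, Klrc2, Klre1, Klrk1 and Xcl1, which were lower.

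Genes that work with the members were read from fixed lists that leave the members out. At an unadjusted p under 0.05, 0 of 15 receptor adaptors and signalling genes were lower and 1 was higher, the adaptor Lat by 0.59 ± 0.18 log2 units (SE). Of 21 other NK surface receptors 2 were lower and 2 higher (9.52% each). By this threshold 3.07% of all genes were lower and 5.12% higher. Cd226, an activating receptor for the nectin-like ligands Pvr and Nectin2, differed by -1.29 ± 0.32 (SE), at 3.36 in NPMc+ and 4.65 in control samples. Cd96, which binds Pvr as well, was higher by 0.81, as was the interleukin 12 receptor chain Il12rb2 (0.81), and Cx3cr1 was lower by -0.40.

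Of 17 transcription factors of NK and innate lymphoid cells, 4 were lower (23.5%) and 2 higher (11.8%) by the same threshold. Over all genes 3.07% were lower and 5.12% higher. Ikzf3, a lymphoid zinc finger factor, had a mean of 3.38 log2 units in NPMc+ and 4.64 in control samples, a difference of -1.26 ± 0.19 (SE; limma adjusted p 0.286). Id2, which NK cells need to develop, had 6.02 and 7.10, a difference of -1.08 ± 0.18 (SE; limma adjusted p 0.309). Irf8 and Bach2 were lower by -0.80 and -0.46, and Ikzf2 and Runx3 were higher by 0.96 and 0.74.

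Granule exocytosis genes and secreted factors went in both directions at an unadjusted p under 0.05. By that threshold 3.07% of all genes were lower and 5.12% higher. Of 16 exocytosis and granule genes, Ctsh was lower (-0.71) and Calr higher (0.41). Of 10 cytokines, chemokines and death ligands, Ltb was lower (-0.89) and Tnfsf10, which encodes the death ligand TRAIL, was higher (0.54). Of 12 measured ligands of the receptors, 1 was lower and 2 were higher by this threshold. H2-M3, a class I molecule that presents formylated peptides, was higher by 1.16 ± 0.21 log2 units (SE; limma adjusted p 0.335) and H2-K1, a classical class I gene, by 0.53, while the NKG2D ligand H60b was lower by -0.68.

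Markers of other blood cells also differed between the groups, and their part in the members' differences was not tested. Of 7 NK cell markers, which are members, 2 were lower, Klrd1 and Gzma, and 0 higher by the same threshold. The shares over all genes, for this and the next lists, were 3.07% lower and 5.12% higher. Of the 7 differences 6 were negative and 1, that of Klrb1c, positive, with a median of -0.21 log2 units. The mean level of the 7, in which Klrd1 had the largest difference (-1.92), was 3.75 to 3.90 on NPMc+ arrays and 4.23 to 4.38 on control arrays. Of 12 T cell markers 2 were lower, Cd3d by -1.48 and Cd3e by -1.33, and 2 higher, Thy1 by 1.12 and Lat by 0.59. Lat is also the higher gene among the adaptors above. The mean level of the 12 was 4.46 to 4.67 in NPMc+ and 4.73 to 4.93 in control samples. Of 12 B cell markers 7 were lower and 0 higher, with a mean level of 4.55 to 4.56 in NPMc+ and 5.60 to 5.61 in control samples. Of the 15 neutrophil and monocyte markers 10 were lower and 0 higher, with pair medians of -1.43, -1.14 and -0.11 in pairs 1, 2 and 3.

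Other marker lists stood as follows by the same threshold, by which 3.07% of all genes were lower and 5.12% higher. Of 7 megakaryocyte markers 6 were higher and 0 lower, with a mean level of 6.55 to 6.72 in NPMc+ and 5.50 to 5.68 in control samples. Of the 12 LT-HSC markers 7 were higher and 0 lower. Of 11 mast cell and basophil markers 1 was lower, Prss34 by -0.73, and 1 higher, Gata2, by 1.04. Gata2 is also among the higher LT-HSC markers. The mean level of the 11 was 5.24 to 5.59 in NPMc+ and 5.13 to 5.48 in control samples. Of 8 dendritic cell markers 3 were lower, Siglech of plasmacytoid cells by -1.03, H2-Aa by -0.92 and H2-Ab1 by -0.72. Flt3 was higher by 0.92, and 4 of the 8 differences were positive. Of 8 erythroid markers 6 were lower and 0 higher, with a mean level of 6.76 to 7.09 in NPMc+ and 7.47 to 7.79 in control samples.

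**Figure D4:**
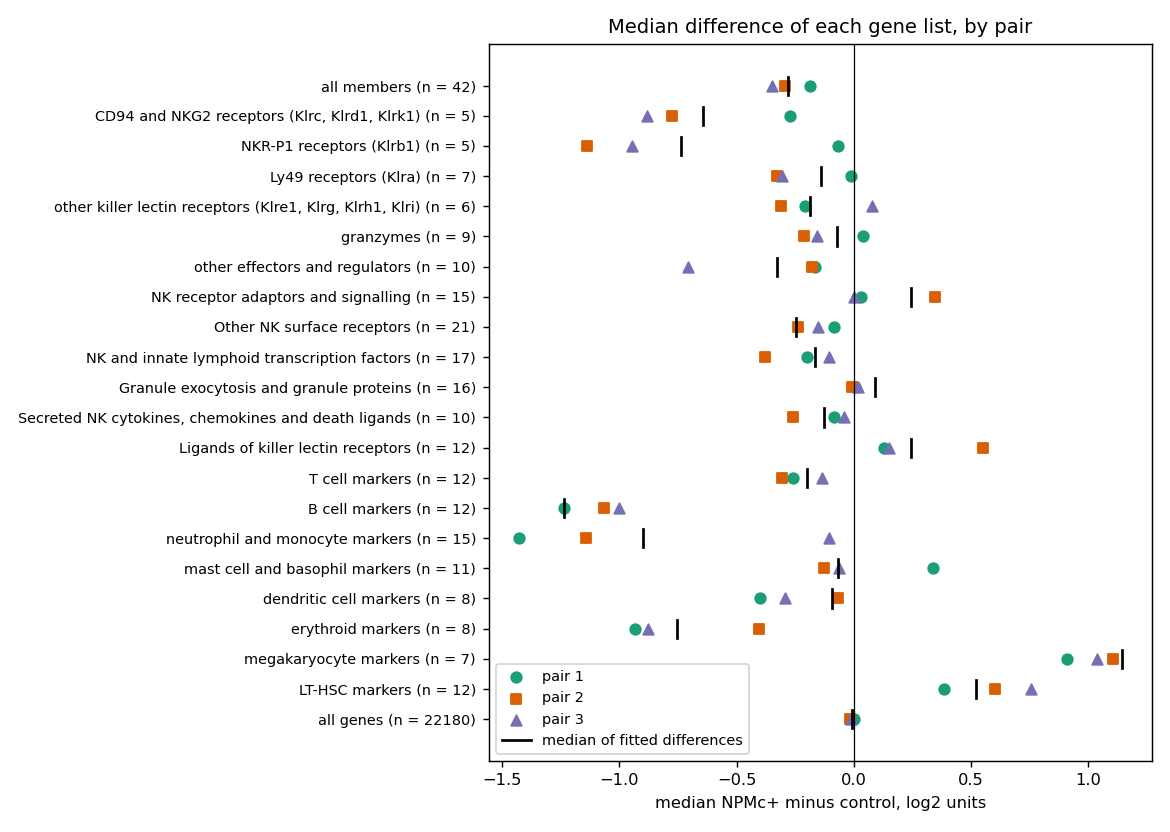
Median NPMc+ minus control difference in log2 units for the members, their role groups, related gene lists and cell type markers, with 1 point for each of pairs 1 to 3 and a black tick at the median of the fitted differences. The members and most of their groups lie left of 0 in each pair, nearest to 0 in pair 1 for the NKR-P1, Ly49, CD94 and NKG2 receptors, while neutrophil and monocyte markers are nearest to 0 in pair 3.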

How the data were processed

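The authors deposited log2 expression values of 41345 probe sets for 6 arrays, made with RMA per the submitters' processing notes. Its version and the genome build were not given in the sources used here. About 5 ng of total RNA per pool was amplified and biotin-labelled, per the labels' protocols. Array medians were 3.90 to 3.99. Precision is limited by the number of arrays. Under the 5 other pairings of the arrays at most 0.343% of probe sets had a common mean, so pairing follows the replicate numbers in the titles. 

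Symbols came from the platform annotation (23521 probe sets with 1 symbol, 1814 with several, 16010 with none), looked up by gene identifier in RefSeq for GRCm38.p6 (23328 matched, 0 changed). The probe set of highest mean represented each of 22180 genes. Differences were fitted over all genes with limma 3.58.1 (lmFit, eBayes, two-sided, replicate number as a block) in R 4.3.3, with 2 residual and 4.25 prior degrees of freedom, and adjusted by Benjamini-Hochberg with a threshold of 0.05. The fit was tested on simulated data. With 3 pairs an exact sign test cannot go below 0.25 and was not run.

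The members and lists were chosen with earlier results of these data known. Values of every array are given for members at an unadjusted p under 0.05 and for 17 effectors and receptors whatever their values; of the lists, genes at an unadjusted p under 0.05 may be named. Plots used matplotlib 3.10.9 and Python 3.11.15.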

Additional observations from a re-analysis of the deposited data

How the results depend on the processing

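None of the 14 members at an unadjusted p under 0.05 changed sign under any alternative. Of the 28 others 11 did under quantile normalization or without a pair, among them Ctsw (-0.38, or 0.34 without pair 3); with all pairs and values as deposited these 11 differed by at most 0.383 log2 units in size. Without the replicate block, a fit that counts more residual degrees of freedom than the paired values hold, 19 members were lower and 3 higher at that threshold, against 11.8% and 12.3% of all genes, and 4 passed the adjusted one in limma, as did 3.72% of all genes: Gzmb (adjusted p 0.0107), Xcl1 (0.0151), Klra2 (0.0219) and Klrd1 (0.0305). Leaving out 1 pair at a time gave 6 to 12 lower members (12 with all pairs), 1 to 2 higher members and a median of -0.33 to -0.25. In these fits 2.7% to 2.9% of all genes were lower and 3.5% to 5.1% higher. With dim genes left out the median of the 26 remaining members was -0.37, and 10 were lower, against 3.02% of all genes in that fit. Quantile normalization gave 11 lower and 2 higher members (3.11% and 4.24% of all genes), and an intensity trend 14 and 2 (3.82% and 3.96%). Averaging probe sets gave 12 and 2 (3.11% and 5.12%), as did testing each on its own (3.04% and 4.97%). Each member has 1 probe set, so averaging or separate testing cannot change its difference. The smallest adjusted p of any member in limma lay between 0.0821 and 0.520 in the blocked alternatives. The cause of these shifts was not tested. No background measurement was used, so members of low signal cannot be told from background.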
